A study of Homo sapiens with 2 samples.

Results

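The autophagy machinery was described here as 40 genes, taken from the initiation kinase complex, the nucleation lipid kinase complexes, the membrane supply and phosphoinositide effectors, the conjugation enzymes, the LC3 family, the cargo receptors and the folliculin complex. Each probe set of the deposited array table whose only annotated gene, by its current or an older symbol, was one of the 40 was taken, which gave 104 of the 37151 probe sets with 1 gene and 40 of 18393 genes. The series holds 1 array of PC3 cells treated with fluphenazine at 10 µM and 1 array of PC3 cells that received DMSO, the solvent. PC3 is a human prostate cancer line derived from a metastasis to bone, and fluphenazine is an antipsychotic of the phenothiazine class. The labels give no other treatment or allele for either culture, and they state no treatment time. With 1 array per treatment, no value below has an error between cultures and no test was made. Differences are on the log2 scale, fluphenazine minus DMSO, so that a positive value means more signal after the drug.

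Autophagy encloses cytoplasm in a double membrane and delivers it to the lysosome. The ULK kinase complex starts the process, the class III phosphoinositide 3-kinase marks the membrane with the lipid PI3P, and PI3P-binding proteins and lipid transfer proteins let the membrane grow. A ubiquitin-like conjugation system then couples proteins of the LC3 and GABARAP family to the lipid phosphatidylethanolamine, and cargo receptors tether their load to these proteins. In prostate cancer cells, as in others, the receptor p62 is itself degraded by autophagy, and many of these genes are transcribed under TFEB and related factors when lysosomes are stressed.

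The labelled cell type was set against marker genes. KRT8, KRT18, KRT19, EPCAM and CD44, which PC3 cells are known to express, all lay above the expression floor on both arrays, at log2 signals of 9.28 to 12.72 with fluphenazine and 9.70 to 12.69 with DMSO. The floor, 6.19, is the median over all genes of the higher of the 2 array values, and it ranks signals without showing that a transcript is present or absent. Of 10 measured markers of blood, endothelial and fibroblast cells, 8 lay under it, all but PECAM1 and COL1A1. KLK3, known as low in PC3, was at 6.90 with fluphenazine and 6.93 with DMSO. In such bulk RNA, fewer cells of a kind and less RNA per cell cannot be told apart. The 24 probe sets of the poly-A spike-ins, bacterial transcripts added before labelling, were all lower on the fluphenazine array, with a median difference of -0.22, and their part in the results below was not tested.

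The genes with the largest differences, WIPI1, SQSTM1 and ATG16L1, are shown first by the 250 bases before their annotated starts, from RefSeq in the build GRCh38.p14, each read 5′ to 3′ along its gene's strand. Capitals mark the GC box GGGCGG or its reverse complement. WIPI1 lies on the minus strand, with the window chr17:68457497-68457746, and holds 9 such matches, most of them in a tandem repeat next to the start. SQSTM1 lies on the plus strand and has 3 annotated starts. The window shown, chr5:179820655-179820904, is that of the most downstream of them, with 4 matches. ATG16L1, on the plus strand, has the window chr2:233251423-233251672, with 2 matches.
WIPI1: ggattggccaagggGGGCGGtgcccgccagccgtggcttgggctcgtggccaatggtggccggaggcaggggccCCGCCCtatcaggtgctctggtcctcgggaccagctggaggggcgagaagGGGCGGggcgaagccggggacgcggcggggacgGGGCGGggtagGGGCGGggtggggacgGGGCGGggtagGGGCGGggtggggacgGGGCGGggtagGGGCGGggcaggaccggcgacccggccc
SQSTM1: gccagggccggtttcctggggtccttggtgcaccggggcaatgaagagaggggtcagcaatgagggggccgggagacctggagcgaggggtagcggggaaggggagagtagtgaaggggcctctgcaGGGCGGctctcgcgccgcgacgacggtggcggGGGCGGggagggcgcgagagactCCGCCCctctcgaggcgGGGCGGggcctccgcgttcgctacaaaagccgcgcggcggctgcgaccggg
ATG16L1: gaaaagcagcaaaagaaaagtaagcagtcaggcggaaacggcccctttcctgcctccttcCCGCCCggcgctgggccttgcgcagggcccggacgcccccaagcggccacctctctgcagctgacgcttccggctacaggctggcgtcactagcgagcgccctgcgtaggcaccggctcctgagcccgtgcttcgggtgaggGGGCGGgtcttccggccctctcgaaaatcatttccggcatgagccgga

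Of the 37 members with a promoter in that table, 27 (73%) held GGGCGG, against 62.1% of 15843 protein-coding genes searched in the same way, on both strands and over all of a gene's listed starts. GGGCGG was chosen after the WIPI1 window had been read. The higher and the lower genes shown above shared this motif with most promoters. ATG4D, RB1CC1 and UVRAG had no entry in it. The ETS motif CCGGAAG was found for 10 members (27%), among them ATG16L1, ATG3 and BECN1, against 14.0% of all genes. The C/EBP-ATF element TGATGCAA, the AP-1 site TGACTCA and TCACGTGA, the core of the element that TFEB binds, had no match in these windows for any member. Their shares of all genes were 0.802%, 4.58% and 1.49%. The antioxidant core TGACNNNGC was found for ATG101, CALCOCO2, MAP1LC3B and TECPR1, which is 10.8% of the members and compares with 14.7% of all genes.

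The 8-letter motif GTCACGTG, which contains the E-box CACGTG and forms part of the palindrome that TFEB is known to bind, was found for 3 members, FNIP1, ATG14 and ATG3 (8.11%, against 3.76% of all genes). The shorter CACGTG was found for the same 3 members (8.11%), below its share of all genes, 9.73%. The 3 genes are shown because each was higher on the fluphenazine array, as described under their steps. So were 26 of the 37 members above the floor, and a link between motif and difference was not tested. Capitals mark GTCACGTG or its reverse complement. All 3 genes lie on the minus strand, in the windows chr5:131797018-131797267 for FNIP1, chr14:55411831-55412080 for ATG14 and chr3:112561963-112562212 for ATG3. The motif lay at bases -21 to -14 from the start of ATG14 and at -20 to -13 from that of ATG3, and at -175 to -168 in FNIP1. A match in these windows is a description of the sequence, not of binding.
FNIP1: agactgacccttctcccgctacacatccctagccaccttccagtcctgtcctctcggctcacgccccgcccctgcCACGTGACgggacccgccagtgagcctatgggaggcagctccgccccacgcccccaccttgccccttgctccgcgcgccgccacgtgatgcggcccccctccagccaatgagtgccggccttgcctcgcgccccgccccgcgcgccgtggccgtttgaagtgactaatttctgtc
ATG14: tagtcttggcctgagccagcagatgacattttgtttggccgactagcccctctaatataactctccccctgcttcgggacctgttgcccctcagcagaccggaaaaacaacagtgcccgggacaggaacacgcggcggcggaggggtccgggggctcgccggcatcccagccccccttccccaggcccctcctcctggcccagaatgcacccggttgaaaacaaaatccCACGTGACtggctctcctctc
ATG3: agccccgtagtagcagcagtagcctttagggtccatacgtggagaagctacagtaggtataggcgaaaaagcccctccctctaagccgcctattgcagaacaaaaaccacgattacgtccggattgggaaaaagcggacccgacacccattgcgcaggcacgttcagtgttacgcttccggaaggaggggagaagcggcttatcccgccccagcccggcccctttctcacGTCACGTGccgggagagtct

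Across the machinery, small increases outnumbered decreases. Each gene was represented by its probe set of highest mean signal, and 37 of the 40 members lay above the floor. Of these 37 genes, 26 were higher and 11 were lower with fluphenazine, against 48.2% higher and 51.7% lower among all 9197 genes above the floor. The median difference of the members was 0.07, or 1.05-fold, and that of all genes was -0.01. The differences of the members ran between -0.48 and 0.54. Past a threshold of 0.32 in either direction there were 2 higher genes, WIPI1 and SQSTM1, and 1 lower gene, ATG16L1. Of all genes, 2.69% were higher by at least 0.32 and 2.58% lower by at least 0.32, so the count of members past the threshold in each direction was near the background. By the probe set used, no member reached 1.5-fold in either direction, as 0.283% and 0.294% of all genes did. A dimmer SQSTM1 probe set, described below, was 1.52-fold higher. As a scale for these sizes, differences of probe sets of the same gene had a pooled SD of 0.13 over 3669 genes, which does not include variation between cultures.

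**Figure D1:**
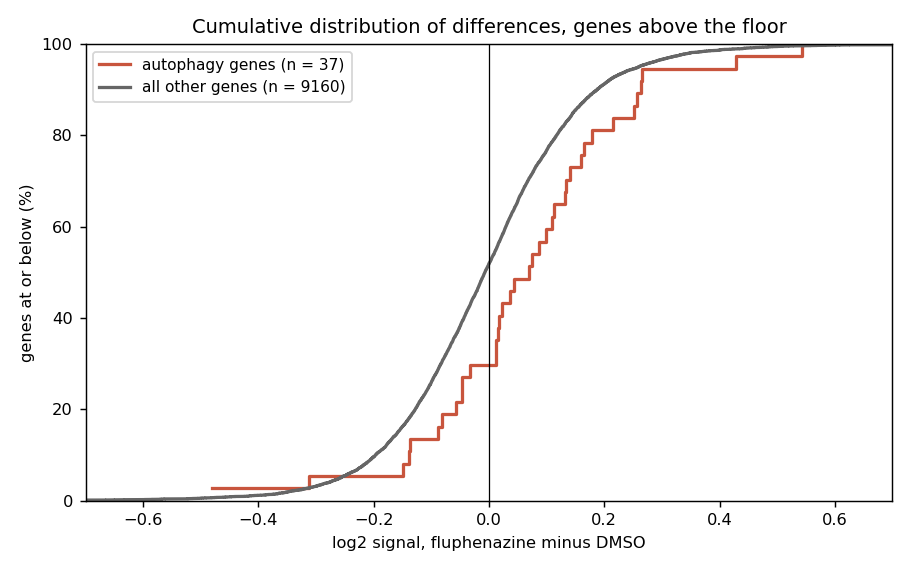
Cumulative share of genes (%, vertical) at or below each log2 difference, fluphenazine minus DMSO (horizontal), for the 37 autophagy genes above the floor and for the 9160 other genes. The autophagy curve lies to the right of the other through most of the range, with medians of 0.07 and -0.01. The curves cross near the lowest values, and at ATG16L1 (-0.48) and ATG9A (-0.31) the autophagy curve lies to the left.

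**Figure D2:**
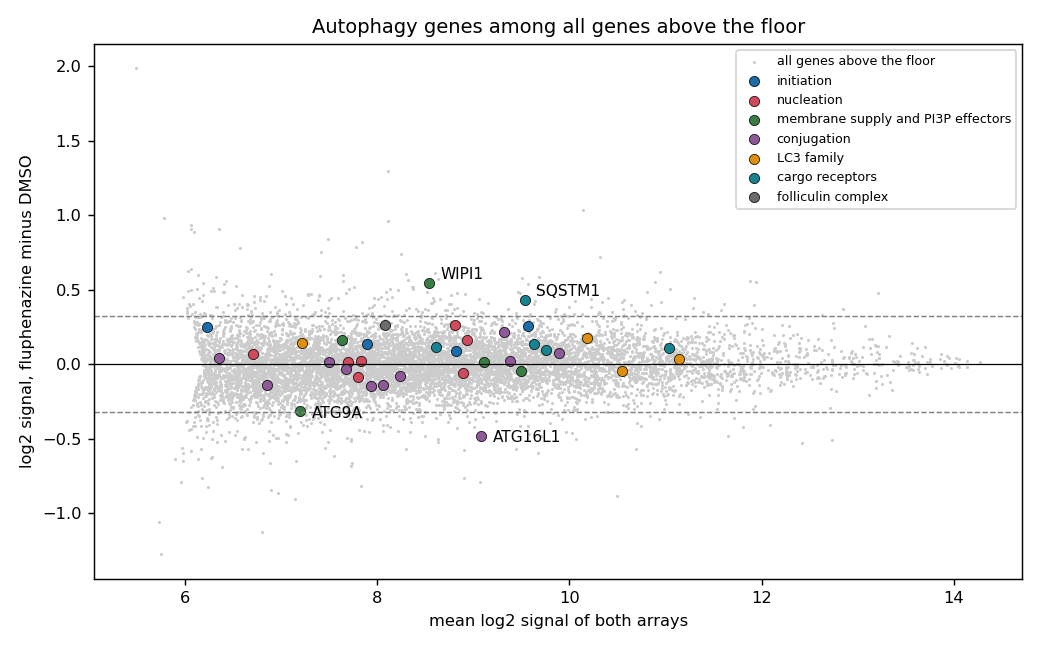
Log2 difference, fluphenazine minus DMSO (vertical), against the mean log2 signal of both arrays (horizontal) for 9197 genes in grey, with the 37 autophagy genes coloured by step. Dashed lines mark the threshold of 0.32 in each direction, past which lie WIPI1 and SQSTM1 (higher) and ATG16L1 (lower), with ATG9A just inside.

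The steps differed in how their members were spread. Among all genes above the floor, 48.2% were higher. All 4 initiation genes and all 5 cargo receptors above the floor were higher, with medians of 0.19 and 0.11. In the LC3 family 3 of 4 genes were higher, with a median of 0.09, and in nucleation 5 of 7, with a median of 0.02. Membrane supply and PI3P effectors had 3 of 5 higher and a median of 0.01, although this step held both a gene past the threshold and the second lowest member. Conjugation was the step with more lower than higher genes, 6 of 11 against 5. Its share of higher genes, 45.5%, was near that of all genes. Its median was -0.03, which turned to 0.049 over 4 genes with the floor at the upper quartile. These counts describe 2 arrays, and no difference between steps was tested.

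**Figure D3:**
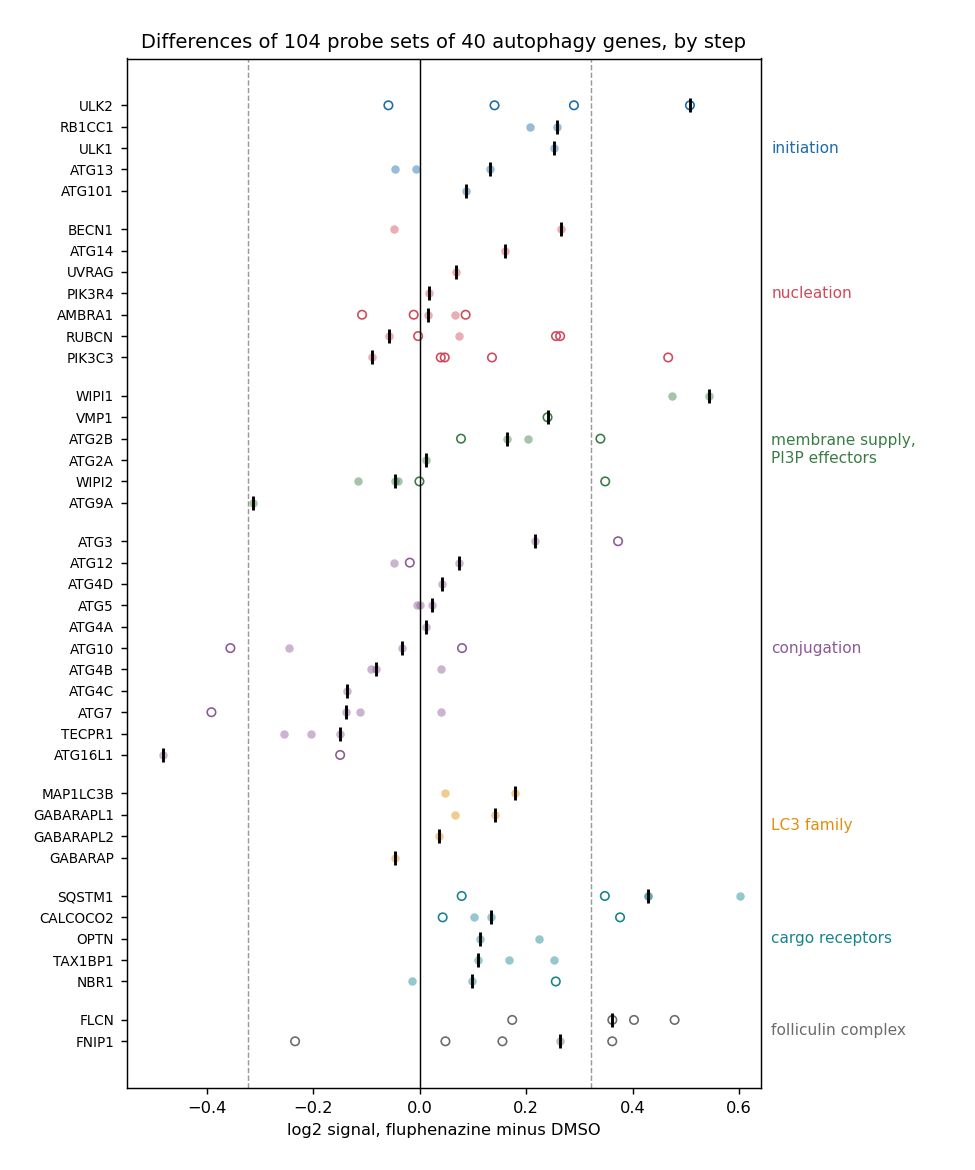
Log2 difference, fluphenazine minus DMSO (horizontal), of all 104 probe sets of the 40 genes, grouped by step. Filled circles are probe sets above the floor, open circles are those under it, black bars mark the probe set used for the gene and dashed lines mark the threshold of 0.32. The initiation and cargo receptor genes lie right of 0 by their black bars, while conjugation genes lie on both sides.

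Initiation was higher in all 4 of its genes above the floor by the probe set used. Of its 7 probe sets above the floor 5 were higher, against 47.2% of all such probe sets. RB1CC1, the FIP200 scaffold of the complex, had a log2 signal of 9.70 with fluphenazine and 9.44 with DMSO, and its 2 probe sets gave differences of 0.26 and 0.21. ULK1, the kinase itself, was at 6.36 with fluphenazine and 6.10 with DMSO, a difference of 0.25 that rests on 1 probe set whose DMSO value lay under the floor. ATG13, the adaptor that holds the kinase, was at 7.97 with fluphenazine and 7.84 with DMSO. Its 3 probe sets disagreed in sign, between -0.05 and 0.13, and 2 of them were lower. ATG101, which stabilises ATG13, was at 8.87 with fluphenazine and 8.78 with DMSO, a difference of 0.09. RB1CC1 and ULK1 thus differed by more than the spread between probe sets of a gene, and ATG13 and ATG101 by about it or less. The second kinase ULK2 lay under the floor, at 5.39 with fluphenazine and 4.89 with DMSO. Its 4 probe sets spanned -0.06 to 0.51, with 3 of them higher, in a signal range where 8.24% of all probe sets were higher past the threshold and 8.82% lower past it.

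Nucleation genes were mostly close to 0. BECN1, the regulatory subunit of the lipid kinase, was at 8.94 with fluphenazine and 8.68 with DMSO, a difference of 0.27, but its other probe set gave -0.05. ATG14, which directs the kinase to the site of autophagosome formation, was at 9.02 with fluphenazine and 8.86 with DMSO, a difference of 0.16 from 1 probe set. These were the highest of the 7. UVRAG, the subunit that takes the place of ATG14 in the endosomal complex, was at 6.74 with fluphenazine and 6.68 with DMSO, a difference of 0.07. The catalytic subunit PIK3C3 (VPS34) was at 7.76 with fluphenazine and 7.85 with DMSO, a difference of -0.09, and the kinase-like scaffold PIK3R4 (VPS15) was at 7.84 and 7.83, a difference of 0.02. RUBCN, an inhibitor of the endosomal complex, was at 8.87 with fluphenazine and 8.93 with DMSO, a difference of -0.06. AMBRA1, a BECN1-binding scaffold, was at 7.70 and 7.69. For RUBCN, PIK3C3, AMBRA1, PIK3R4 and UVRAG the difference was smaller than the spread between probe sets of a gene, so the kinase and its scaffold showed no difference beyond that scale.

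Among membrane supply genes and PI3P effectors, WIPI1 stood at the upper end and ATG9A at the lower end. WIPI1, a WD-repeat protein that binds PI3P on the growing membrane, had a log2 signal of 8.81 with fluphenazine and 8.27 with DMSO, which is 1.46-fold higher. Its second probe set was at 8.45 with fluphenazine and 7.98 with DMSO, a difference of 0.47. WIPI1 ranked 37th of 9197 genes by positive difference. Its paralogue WIPI2, which recruits ATG16L1, was at 9.47 with fluphenazine and 9.52 with DMSO, and the 3 probe sets above the floor lay between -0.11 and -0.04. Both WIPI1 probe sets lay above these 3. WIPI1 was the highest member, and its probe sets likewise lay above those of every other member above the floor except SQSTM1. With its 2 probe sets under the floor averaged in, WIPI2 came to 0.03 and WIPI1, which has none there, to 0.51. ATG9A, a lipid scramblase carried on vesicles to the growing membrane, was at 7.05 with fluphenazine and 7.36 with DMSO, 1.24-fold lower and just short of the threshold, from 1 probe set. Of the lipid transfer proteins, ATG2B was at 7.72 with fluphenazine and 7.55 with DMSO. All 4 of its probe sets were higher, by 0.16 and 0.20 above the floor and by 0.34 and 0.08 under it. ATG2A was at 9.12 with fluphenazine and 9.11 with DMSO. VMP1, a scramblase of the endoplasmic reticulum, was read by 1 probe set of its own, at 6.18 with fluphenazine and 5.94 with DMSO, which lay just under the floor.

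Conjugation genes went both ways, and the lowest value of the machinery was here. ATG16L1 holds the ATG12-ATG5 conjugate at the membrane and so sets where LC3 is attached. Its log2 signal was 8.85 with fluphenazine and 9.33 with DMSO, a difference of -0.48, which ranked 63rd of 9197 genes by negative difference. The other ATG16L1 probe set, far under the floor, was at 3.14 with fluphenazine and 3.29 with DMSO, a difference of -0.15. ATG5 itself was at 9.39 with fluphenazine and 9.37 with DMSO, and its 3 probe sets lay between -0.0049 and 0.02. ATG12, the ubiquitin-like protein joined to ATG5, was at 9.93 with fluphenazine and 9.86 with DMSO, with probe sets above the floor at 0.07 and -0.05. Of the 3 parts of this complex, ATG16L1 alone differed by more than the spread between probe sets.

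The enzymes of conjugation differed among themselves. ATG3, the conjugating enzyme that passes LC3 to its lipid, was the highest of this step at 9.42 with fluphenazine and 9.21 with DMSO, a difference of 0.22. ATG7, the activating enzyme for both ubiquitin-like branches, was at 7.99 with fluphenazine and 8.13 with DMSO, and its 3 probe sets above the floor gave -0.14, -0.11 and 0.04. ATG10, the conjugating enzyme for ATG12, was at 7.67 with fluphenazine and 7.70 with DMSO, with a further probe set at -0.24. The 2 conjugating enzymes lay on opposite sides of 0, ATG10 by less than the spread between probe sets. TECPR1, which binds the ATG12-ATG5 conjugate, was at 7.87 with fluphenazine and 8.02 with DMSO, and all 3 of its probe sets were lower, by differences of -0.25 to -0.15. The ATG4 proteases, which trim LC3 before conjugation and release it afterwards, gave 0.01 for ATG4A, -0.08 for ATG4B, -0.14 for ATG4C and 0.04 for ATG4D. The 3 probe sets of ATG4B lay between -0.09 and 0.04. Of these proteases, ATG4C alone exceeded the spread between probe sets, and only slightly.

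**Figure D4:**
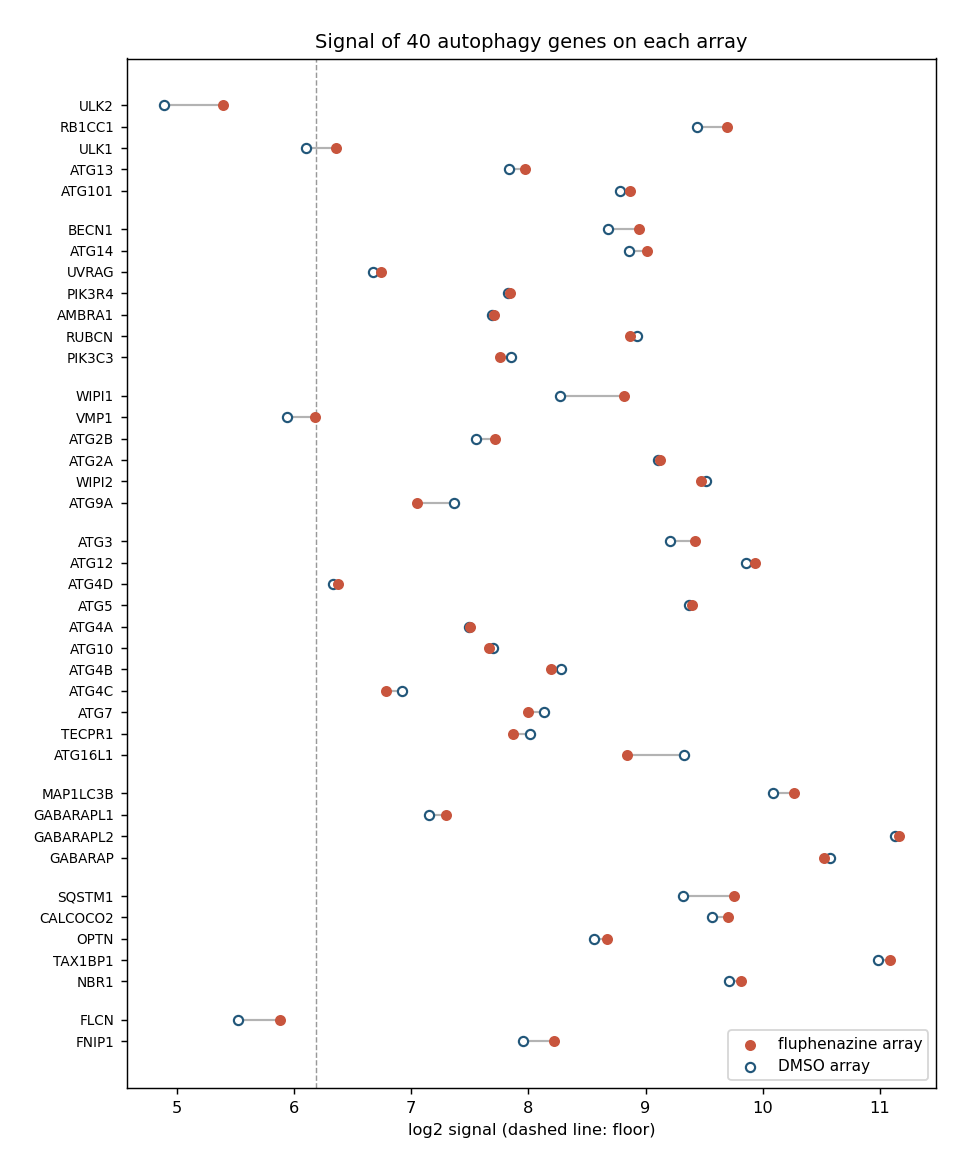
Log2 signal (horizontal) of the probe set used for each of the 40 genes, on the fluphenazine array (filled) and the DMSO array (open), grouped by step from initiation at the top to the folliculin complex at the bottom. The dashed line is the floor of 6.19, under which ULK2, VMP1 and FLCN lie on both arrays. Levels of different genes come from different probes and cannot be compared.

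The LC3 family, whose members are attached to the membrane and bind the receptors, showed small differences. MAP1LC3B, the LC3 protein used as the usual marker of autophagosomes, was at 10.27 with fluphenazine and 10.09 with DMSO, a difference of 0.18, or 1.13-fold. Its second probe set was at 10.03 and 9.98, a difference of 0.05. GABARAPL1 was at 7.30 with fluphenazine and 7.15 with DMSO, a difference of 0.14, with a second probe set at 0.07. A further probe set, annotated to both GABARAPL1 and GABARAPL3 and so not used for the gene, was at 8.45 with fluphenazine and 8.38 with DMSO. GABARAPL2 was at 11.16 with fluphenazine and 11.13 with DMSO, and GABARAP at 10.52 with fluphenazine and 10.57 with DMSO. No gene of this family passed the threshold, and GABARAP was the 1 lower gene of the 4. Transcript sequences of the family were not compared, so the split of signal between any near-identical copies is uncertain.

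Cargo receptors were higher in every member, SQSTM1 most. SQSTM1 encodes p62, which binds ubiquitin-tagged cargo and LC3. Its log2 signal was 9.75 with fluphenazine and 9.32 with DMSO, 1.35-fold higher, which ranked 101st of 9197 genes. All 5 of its probe sets were higher. A second was at 6.72 with fluphenazine and 6.12 with DMSO, a difference of 0.60. Another was at 6.32 with fluphenazine and 5.89 with DMSO, a difference of 0.43. Both passed the floor by their fluphenazine values alone, and only the probe set used for the gene lay above it on both arrays. The 2 dimmest probe sets, under the floor, gave 0.08 and 0.35.

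The other 4 receptors were higher by less, with differences of 0.10 to 0.13. CALCOCO2 (NDP52), a receptor for bacteria and damaged mitochondria, was at 9.70 with fluphenazine and 9.57 with DMSO. All 4 of its probe sets were higher, by 0.13 and 0.10 above the floor and by 0.04 and 0.38 under it. OPTN (optineurin), which shares those cargoes, was at 8.67 with fluphenazine and 8.56 with DMSO, and its probe sets gave 0.11 and 0.22. TAX1BP1, a ubiquitin-binding relative of CALCOCO2, was at 11.09 with fluphenazine and 10.98 with DMSO, with 3 probe sets from 0.11 to 0.25. NBR1, a partner of p62, was at 9.81 with fluphenazine and 9.71 with DMSO, and its second probe set above the floor gave -0.01. Over all 5 receptors, SQSTM1 included, 11 of 12 probe sets above the floor were higher, against 47.2% of all 14670 such probe sets. Probe sets of the same gene on the same arrays are not independent, and some passed the floor by their fluphenazine values alone. By the probe set used, each of the 4 receptors other than SQSTM1 differed by less than, or about, the spread between probe sets of a gene. With probe sets averaged, TAX1BP1 came to 0.18, OPTN to 0.17, CALCOCO2 to 0.16 and NBR1 to 0.11.

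The folliculin complex, a regulator of nutrient signalling at the lysosome that acts on TFE3 and TFEB, had 1 gene above the floor. FNIP1, the binding partner of folliculin, was at 8.22 with fluphenazine and 7.95 with DMSO, a difference of 0.26, short of the threshold. Its 4 other probe sets, all under the floor, spanned -0.23 to 0.36, and the average of all 5 was 0.12. FLCN itself lay under the floor, at 5.88 with fluphenazine and 5.52 with DMSO, with all 4 of its probe sets higher, by 0.17 to 0.48. A further probe set, annotated to FLCN and to its neighbour PLD6 and so not used for the gene, was at 6.59 with fluphenazine and 6.35 with DMSO.

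Probe sets of the same gene were compared as the available check within the arrays. Of the 21 members that had 2 or more probe sets above the floor, 10 had all of these higher, 3 had all lower and 8 had both signs. The genes with both signs were ATG13, BECN1, RUBCN, ATG12, ATG5, ATG4B, ATG7 and NBR1, and the largest gap among them was that of BECN1. Over the 66 member probe sets above the floor, 42 were higher and 24 lower, against 47.2% and 52.7% of all such probe sets, and the median was 0.04. Past the threshold lay 5 higher probe sets, against 2.87% of all, and 1 lower one, against 2.97% of all. The 5 higher ones all belong to WIPI1 and SQSTM1, so they repeat the 2 genes already counted above. The floor takes the higher of the 2 array values, so some probe sets passed it on 1 array only. With fluphenazine alone these were ULK1, 2 probe sets of SQSTM1 and 1 each of OPTN and ATG2B. With DMSO alone they were 1 each of TECPR1 and ATG4B. Of the 38 under the floor, 28 were higher, against 49.1% of all probe sets under it.

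Of the other autophagy genes in the lists used, 53 of 54 were measured and 39 lay above the floor. Of these 39, 26 were higher and 13 lower, against 48.2% and 51.7% of all genes, with a median of 0.03. The transcription factors were higher in 5 of 6, with FOXO3 at 0.21, FOXO1 at 0.14, TFEB at -0.11, TFE3 at 0.10 and MITF at 0.12. ZKSCAN3 was at 0.07, with a DMSO value under the floor. With each gene's probe sets averaged the signs of TFEB, TFE3 and FOXO1 turned, to 0.01, -0.01 and -0.08. FOXO3 then came to 0.05, MITF to 0.25 and ZKSCAN3 to 0.01. The selective receptors for mitochondria, endoplasmic reticulum and other cargo, apart from the members, were higher in 4 of 10, led by the mitochondrial receptor BNIP3L at 0.17. Genes of fusion with the lysosome were higher in 7 of 11. Further initiation and nucleation genes were higher in 7 of 8, with MTOR, the kinase that holds the ULK complex inactive, at -0.18. In the remaining list, of membrane and conjugation genes, 3 of 4 were higher, by at most 0.06.

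Past the threshold of 0.32 there were 2 higher genes of these 39 and no lower one, against 2.69% and 2.58% of all genes. PRKAA1, a catalytic subunit of the energy sensor AMPK, was at 8.99 with fluphenazine and 8.62 with DMSO, a difference of 0.37, and its other 2 probe sets above the floor gave 0.09 and -0.02. RAB7A, the GTPase that prepares autophagosomes for fusion, was at 9.36 with fluphenazine and 8.95 with DMSO, a difference of 0.41, and its second probe set above the floor gave 0.05. In both genes the probe sets disagreed in size, unlike those of WIPI1.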

How the data were processed

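Total RNA of PC3 cells was measured on 2 arrays, 1 per treatment, and the labels define the groups. The authors' deposited table gives each probe set a log2 signal on each array. The log2 scale was judged from its range, 1.60 to 14.28. Sorted, the columns differ by at most 0.13, so they share nearly one distribution. RMA, Transcriptome Analysis Console 3.1 and Affymetrix Expression Console 1.4 are named, per the submitters' processing notes, without saying what each did. The probe annotation is dated 2016 and its genome build is not stated.

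Of 47693 probe sets, the 37151 with 1 annotated gene were used, giving 18393 genes, 18354 with symbols updated through the gene identifier. The probe set with the highest mean stood for a gene. Genes whose higher value reached the median of that quantity, 6.19, were analysed, which left 9197. With 1 array per treatment no test across samples was possible, and the number of arrays limits the precision. All 40 members are accounted for, and other autophagy genes are named past a log2 difference of 0.32. FOXO3, FOXO1, TFEB, TFE3, MITF, ZKSCAN3, BNIP3L and MTOR lie outside that rule and were chosen after their values were seen. Members, lists and motifs were chosen with earlier results of these data known. Promoter sequences follow the gene's strand: all 2984 pairs of windows on opposite strands that overlap by at least 50 bases were reverse complements there. Alternatives were 2 other scalings, averaged probe sets, 2 other floors, a 1.5-fold threshold and counting every probe set. The counting procedure was tested on simulated data with less noise than the spread between probe sets here. The simulated shifts were larger than any member's difference by the probe set used. That run checked the calculation and cannot show the error of the counts at the noise of these arrays. Some marker and list genes are not analysed here. Python 3.11.15, numpy 2.4.6, pandas 2.3.3 and matplotlib 3.10.9 were used.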

Additional observations from a re-analysis of the deposited data

How the results depend on the processing

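Centring each array on its median or quantile normalization moved no member by more than 0.03 on the log2 scale, and the median of all genes stayed between -0.02 and 0.00 under every alternative. The members' median of 0.07 became 0.10 with the floor at the upper quartile. With averaged probe sets 34 members lay above the floor, and 2 genes passed the threshold of 0.322 as higher and 0 as lower, since ATG16L1 came to -0.315. The median of nucleation was then 0.089 over 4 genes in place of 7, and that of membrane supply and PI3P effectors 0.11 over 6 in place of 5. Averaging turned the sign of WIPI2 to 0.03, PIK3C3 to 0.12 and RUBCN to 0.11, and put BECN1 at 0.11, FNIP1 at 0.12 and ULK2 at 0.22. Without a floor 4 genes passed the threshold as higher, and membrane supply came to 0.088. With the floor at the upper quartile nucleation came to 0.16 over 3 genes and conjugation, at -0.03, turned to 0.049 over 4 genes. At 1.5-fold the counts of genes, by the probe set used, were 0 higher and 0 lower. Counting every probe set above the floor gave 5 higher, all of them of WIPI1 and SQSTM1. Other medians and differences moved by less than the spread between probe sets, and other counts stayed as they were. With 1 array each, background correction and the variation between cultures could not be examined, and signals near the floor are noisier. No paired analysis was possible because each treatment has 1 array.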

Other observations

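VMP1 was also read by 3 probe sets that the annotation assigns to both VMP1 and the microRNA gene MIR21, which lies at its 3' end. They were at 10.46, 8.83 and 5.26 with fluphenazine, against 10.40, 8.80 and 5.58 with DMSO, which gives differences of 0.07, 0.02 and -0.31, the last from a probe set under the floor. The probe set annotated to VMP1 alone gave 0.24. Which transcript each of these probe sets reads was not tested.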
